A study of Mus musculus with 4 samples.

Results

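The 45 genes described here encode the machinery that copies DNA and the enzymes that make its building blocks, out of 21506 genes in the tables. They were chosen by name: 41 had a row under their own symbol, and Orc2, Orc3, Orc5 and Orc6 had rows under the older symbols Orc2l, Orc3l, Orc5l and Orc6l, which were matched through RefSeq accessions. For a gene with several transcript rows the one with the longest exon length was kept. The cells were 32Dclone3, a mouse myeloid line that needs interleukin-3, which was in the medium of all cultures. Cells stably infected with XZ-miR-125b virus, which makes them overexpress the microRNA miR-125b, were set against cells stably infected with the XZ control virus. Each condition was infected in separate rounds with different virus supernatants, giving 2 poly(A)-enriched libraries with miR-125b and 2 control libraries. All 4 come from 1 established line, and no wild-type or uninfected cells are part of the comparison.

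Before a cell divides, the origin recognition complex marks start sites on DNA, and Cdc6 and Cdt1 load the ring-shaped helicase of Mcm2 to Mcm7 there, a step that geminin holds back. The Cdc7 kinase with its partner Dbf4, Mcm10 and the GINS complex then turn the loaded ring into a moving helicase. Polymerase alpha with primase starts each strand, the clamp loader places the sliding clamp PCNA, polymerases delta and epsilon extend the strands, and Fen1 and DNA ligase I finish the pieces. Ribonucleotide reductase and the thymidylate enzymes supply the nucleotides. Many of these genes are known targets of E2F transcription factors and are highest around the start of S phase, so their messages are commonly used as signs of dividing cells. In a growth-factor-dependent progenitor line such as 32D they are high while the cells cycle.

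The sequence of miR-125b is shown because mRNAs that carry a match to its seed are the candidates for direct lowering. The capitals mark the seed, bases 2 to 8 of the mature RNA (RefSeq, GRCm38.p6, chr9:41581940-41581961, plus strand).
mmu-miR-125b-5p: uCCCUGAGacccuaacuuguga

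All 45 genes had an annotated 3′ UTR in GENCODE M21 (GRCm38). The longest one of each was searched for CTCAGGGA (8mer), CTCAGGG (7mer-m8), TCAGGGA (7mer-A1) and TCAGGG (6mer) on the transcribed strand, and since these overlap, each gene was counted under its best site. An 8mer was found in 2 of the 45 (4.44%) and a 7mer-m8 in 3 (6.67%), against 5.58% and 10.0% of the 9870 tested genes with a 3′ UTR. No match of any of these kinds was found in 33 of the 45 (73.3%), against 63.7% of all. For the 5 genes whose best match was an 8mer or a 7mer-m8, that match is shown with its surroundings, as RNA sense written in DNA letters, with the match in capitals. They lie in the 3′ UTR at chr1:58463922-58463951 on the minus strand for Orc2, chr5:117378959-117378988 on the minus strand for Rfc5, chr11:98922305-98922334 on the plus strand for Cdc6, chr2:4990044-4990073 on the minus strand for Mcm10 and chr5:134599213-134599242 on the plus strand for Rfc2.
Orc2 8mer: tgtacagtgtgCTCAGGGAttctttggaac
Rfc5 8mer: gtaaaatgcatCTCAGGGAggtgctttcag
Cdc6 7mer-m8: tcacactttgcCTCAGGGttagcttccctc
Mcm10 7mer-m8: gttctcatctgCTCAGGGcgtggctgggtc
Rfc2 7mer-m8: cctctctggacCTCAGGGtcatttctacta

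A second set of sequences is shown because E2F factors are known regulators of many of these genes. The motif was searched as TTTCCCGC, TTTCGCGC, TTTGGCGC and TTTGCCGC on both strands, in windows of 300 bases from 250 bases before to 50 after the annotated start (RefSeq, GRCm38.p6). Matches can overlap, as in Mcm5 and Mcm6. Of the 37 genes with a window, 14 held a match (37.8%), against 2.605% of 27025 genes with a window and 5.09% of the 8192 tested genes with one. By role, matches were in 7 of 11 helicase-loading genes, 1 of 4 helicase-activation genes, 4 of 7 polymerase and primase genes, 2 of 10 clamp, loader, strand-binding and joining genes and 0 of 5 nucleotide-supply genes. A match in these letters is not evidence of binding, and the lack of one covers only these windows. The matches shown begin 153 bases before the start for Mcm5 (chr8:75109345-75109374, plus strand), 47 before it for Mcm6 (chr1:128359734-128359763, minus strand) and 138 before it for Cdc6 (chr11:98908002-98908031, plus strand), and at base 17 after it for Mcm7 (chr5:138171849-138171878, minus strand). They are written 5′ to 3′ on the gene's own strand, and the capitals mark the motif, which in Cdc6 lies on the other strand.
Mcm5: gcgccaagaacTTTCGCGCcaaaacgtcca
Mcm6: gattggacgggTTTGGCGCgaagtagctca
Mcm7: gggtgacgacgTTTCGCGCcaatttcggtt
Cdc6: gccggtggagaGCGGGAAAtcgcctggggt

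Summed over all transcript rows, the miR-125b libraries held 12.6 and 11.7 M reads, and the control libraries 11.2 and 10.4 M. A read in a gene with several rows may be counted more than once there. With 1 row per gene the sums were 9.48 and 8.82 M with miR-125b and 8.42 and 7.73 M in control. Control replicate 2 stood apart: across tested genes it correlated with the other 3 libraries at Pearson's r of 0.937 to 0.957, which were at 0.962 to 0.979 among themselves. Of 10 myeloid markers 9 reached 1 RPKM (reads scaled to exon length and to the library's total) in at least 2 libraries, with a summed level of 1556 and 1125 RPKM with miR-125b and 990 and 1840 RPKM in control. Of 5 erythroid markers 2 did, with sums of 6.95 and 10.1 RPKM with miR-125b and 7.93 and 9.67 RPKM in control. Of 7 lymphoid and 6 stromal and epithelial markers none did, and their summed levels were at most 0.689 and 0.322 RPKM in any library. The summed myeloid markers were highest in control replicate 2, and their part in the results was not tested. In a bulk library, fewer cells in S phase and less message per cell cannot be told apart.

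The 45 genes had between 72 reads (Pole2 in control replicate 2) and 4843 reads (Mcm6 in miR-125b replicate 1) per library, and all passed the filter of 1 RPKM in at least 2 libraries. Levels ran from Pole2, at 6.84 ± 0.779 RPKM with miR-125b and 5.46 ± 1.93 RPKM in control, to Mcm6, at 134 ± 2.21 RPKM with miR-125b and 107 ± 33.7 RPKM in control (SD, n = 2 each). The helicase subunits Mcm6, Mcm3 and Mcm2, the clamp gene Pcna, Fen1 and the clamp loader gene Rfc2 made up the 6 highest by mean over the 4 libraries. At the low end, next to Pole2, were Gins3, Orc5, Orc3 and Cdc6.

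No gene of the 45 passed the test for a difference between miR-125b and control cells (limma's moderated linear model on log2(RPKM + 1), p adjusted over 10310 genes by Benjamini and Hochberg). The smallest adjusted p among them was 0.488, and over all tested genes 0 were called, 0% of them. At an unadjusted p under 0.05 stood 1 of the 45, Fen1, which was lower, where 9.38% of all tested genes reached that level, 4.17% on the higher and 5.21% on the lower side. With limma-voom on reads recovered from the RPKM values, 0 of the 45 were called as well and Fen1 was again the only one with an unadjusted p under 0.05. Of all 10310 tested genes, 0 were called in that setting, and 452 were higher and 545 lower at an unadjusted p under 0.05. The standard errors of the log2 fold changes ran from 0.18 to 0.36, so differences of the size seen for most of these genes were not detectable with 2 libraries per group.

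The shared pattern lay between the control libraries. Control replicate 2 was the lowest of the 4 libraries for 35 of the 45 genes (77.8%), against 37% of all tested genes. It was below control replicate 1 for 40 of the 45, against 51.5% of all tested genes. The median ratio over the 45 was 0.721, with Orc2 lowest at 0.456 and the single-strand binding subunit gene Rpa3 highest at 1.62. The miR-125b libraries were alike, with a median ratio of replicate 2 to replicate 1 of 1.02. Their mean was within 10% of control replicate 1 for 28 of the 45 genes and within 10% of control replicate 2 for 7. For 36 of the 45 the control libraries lay further apart on the log2 scale than the group means did, and for 16 the miR-125b libraries did. Shares over all tested genes were not computed for the counts within 10% or for these, so nothing is read from them.

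**Figure D1:**
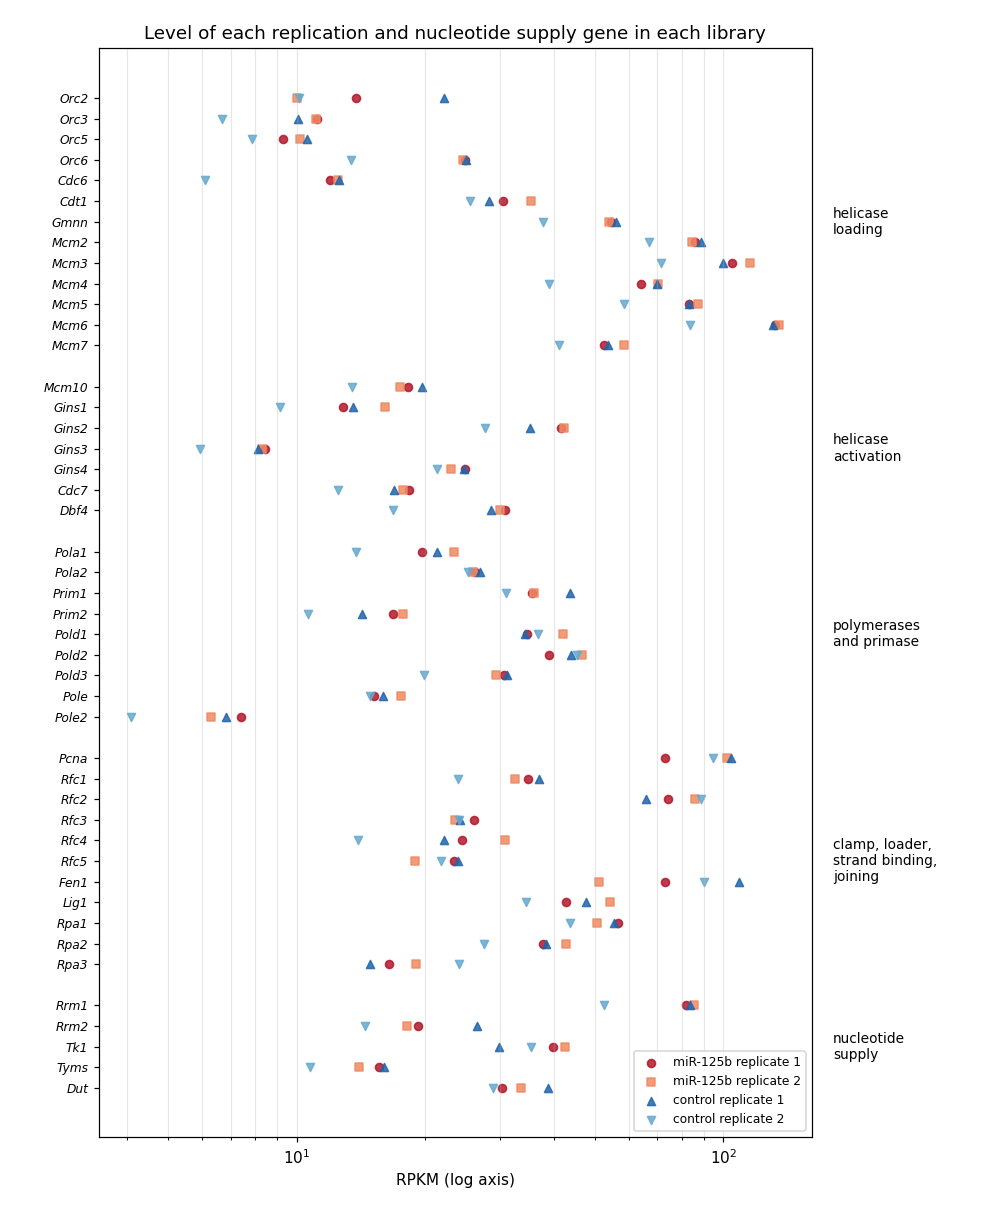
RPKM (log axis) of each of the 45 genes in each of the 4 libraries, ordered by role down the page, 1 point per library. The point of control replicate 2 is the lowest in 35 of the 45 rows, against 37% of all tested genes.

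With all 4 libraries, the log2 fold changes leaned to the positive side. The median over the 45 was 0.23, with 36 above 0 and 9 below (in 52.8% of all tested genes the value was above 0), where the median over all tested genes was 0.024. Without control replicate 2 the median of the 45 was -0.0026, with 22 above 0 and 23 below, and that of all tested genes -0.0072. Without control replicate 1 the median of the 45 was 0.42, and that of all tested genes 0.038. Both miR-125b libraries were above both controls for 11 of the 45, against 22.3% of all tested genes, and below both for 1, against 20.4%, while 33 overlapped.

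The median was above 0 in all 5 role classes with all 4 libraries. The median log2 fold change was 0.29 over 13 helicase-loading genes, 0.29 over 7 helicase-activation genes, 0.10 over 9 polymerase and primase genes, 0.063 over 11 clamp, loader, strand-binding and joining genes and 0.16 over 5 nucleotide-supply genes. The difference of control replicate 2 from control replicate 1 had a median of -0.53 in helicase loading, -0.41 in helicase activation, -0.39 in polymerases and primase, -0.27 in the clamp and joining class and -0.53 in nucleotide supply. Without control replicate 2 the class medians of the fold change were -0.013, 0.082, -0.0026, 0.013 and -0.11, in the same order. These class values are descriptions, and differences between classes were not tested.

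**Figure D2:**
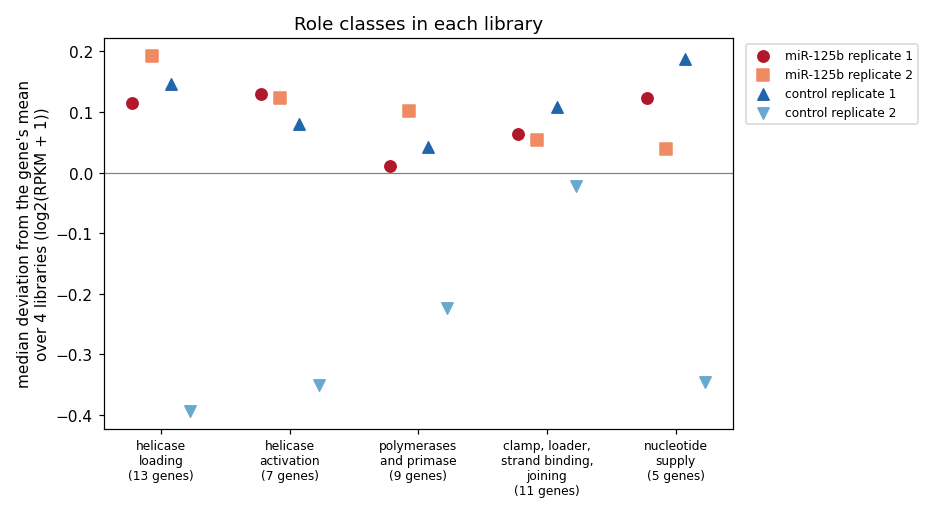
Median over the genes of each role class of the deviation of log2(RPKM + 1) from the gene's own mean over the 4 libraries, 1 point per library. Control replicate 2 sits at -0.39 for helicase loading, -0.35 for helicase activation and -0.023 for the clamp and joining class, while the other 3 libraries lie above 0 in every class.

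Among origin recognition genes, Orc2, with an 8mer in its longest annotated 3′ UTR, encodes a core subunit. It had 13.8 and 9.99 RPKM with miR-125b, against 22.2 and 10.1 RPKM in control. Control replicate 1 was the highest, and control replicate 2 lay between the miR-125b libraries, so the groups overlapped. Its log2 fold change was -0.34 ± 0.36 (SE), -0.87 without control replicate 2 and 0.19 without control replicate 1, and the gene's shorter transcript row gave -0.14.

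Orc3, which encodes another subunit of the complex, was at 11.1 and 11.1 RPKM with miR-125b and at 10.1 and 6.67 RPKM in control. Both miR-125b libraries were above both controls, by little over control replicate 1. Its row shares 128 exon bases with Akirin2 on the other strand, and strand use in counting is not stated, so reads of both genes there cannot be told apart. Orc6, whose product completes the complex, was at 24.8 and 24.5 RPKM with miR-125b and at 24.9 and 13.4 RPKM in control. Both miR-125b libraries and control replicate 1 were nearly equal, and control replicate 2 alone was low. Orc5 ran between 7.86 and 10.6 RPKM over the 4 libraries, and its groups overlapped.

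The loading factor gene Cdc6 was at 11.9 and 12.5 RPKM with miR-125b and at 12.6 and 6.11 RPKM in control. Its longest annotated 3′ UTR holds a 7mer-m8 site, and the gene's log2 fold change was 0.43 ± 0.31 (SE), or -0.041 without control replicate 2. Cdt1, which brings the helicase to the origin, was at 30.4 and 35.4 RPKM with miR-125b and at 28.2 and 25.5 RPKM in control. Its groups did not overlap, and its log2 fold change of 0.28 ± 0.19 ranged from 0.17 to 0.39 when libraries were left out in turn. Gmnn, the gene of geminin, which binds and blocks Cdt1, was at 54.7 and 53.8 RPKM with miR-125b and at 56.0 and 37.9 RPKM in control, with overlapping groups. Cdt1 was higher with miR-125b against each control library, while Gmnn was so against control replicate 2 only. The ratio of Cdt1 to Gmnn was 0.556 and 0.658 with miR-125b and 0.505 and 0.672 in control, and these overlapped.

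The 6 genes of the MCM ring, Mcm2 to Mcm7, were each lowest in control replicate 2 and stood close together in the other 3 libraries. Mcm6 (chromosome 1, 130228168 to 130256233 in mm9, 17 exons) was at 132 and 135 RPKM with miR-125b and at 131 and 83.4 RPKM in control. Mcm3 was at 105 and 115 RPKM with miR-125b and at 99.7 and 71.6 RPKM in control. In both genes each miR-125b library was above both controls, but for Mcm6 the margin over control replicate 1 was about 1 RPKM.

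Mcm2 was at 86.0 and 84.3 RPKM with miR-125b and at 88.8 and 66.9 RPKM in control. Mcm5 was at 82.98 and 87.5 RPKM with miR-125b and at 83.1 and 58.5 RPKM in control. In both, control replicate 1 lay among or above the miR-125b libraries. Mcm4 was at 64.2 and 70.3 RPKM with miR-125b and at 69.8 and 39.0 RPKM in control, with the widest gap between the controls of the 6 in proportion. Mcm7 was at 52.5 and 58.4 RPKM with miR-125b and at 53.6 and 41.1 RPKM in control. The groups of Mcm2, Mcm4, Mcm5 and Mcm7 overlapped.

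The log2 fold changes of the 6 ran from 0.14 ± 0.21 (SE) for Mcm2 to 0.38 ± 0.23 for Mcm3, with a median of 0.32, or 0.032 without control replicate 2. Their summed level was 523 and 551 RPKM with miR-125b and 526 and 361 RPKM in control. The make-up of that sum moved little. Mcm5 took between 15.8% and 16.2% of it in the 4 libraries, Mcm6 between 23.1% and 25.3%, Mcm3 between 18.9% and 20.9%, Mcm7 between 10.0% and 11.4%, Mcm4 between 10.8% and 13.3%, and Mcm2 between 15.3% and 18.6%. In all 4 libraries Mcm6 was the highest of the 6 and Mcm3 the next. Mcm2 and Mcm5 changed places in miR-125b replicate 2, and Mcm4 and Mcm7 in control replicate 2.

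**Figure D3:**
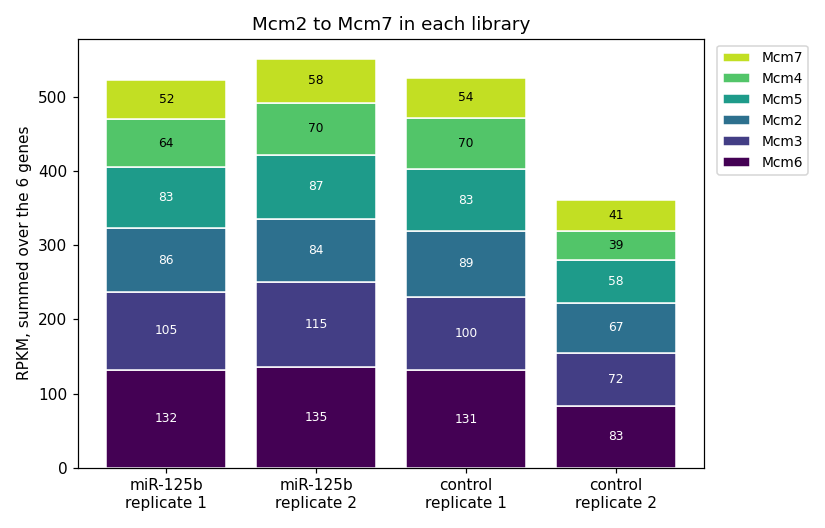
Stacked bars of the RPKM of Mcm2 to Mcm7 in each library, with the value of each gene printed in its part. The bar of control replicate 2 is the shortest, at 361 RPKM against 526 RPKM in control replicate 1, and the order of the parts is similar in all 4.

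Mcm7 hosts the hairpins of Mir106b, Mir93 and Mir25 in its introns, where their rows share no exon bases with it. These rows held at most 5 reads in any library, so nothing can be read from them.

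The helicase-activation genes were each lowest in control replicate 2. Dbf4, the partner that activates the Cdc7 kinase, was at 30.8 and 29.9 RPKM with miR-125b and at 28.5 and 16.8 RPKM in control. Cdc7 was at 18.4 and 17.8 RPKM with miR-125b and at 16.9 and 12.5 RPKM in control. The groups of both genes did not overlap, with log2 fold changes of 0.45 ± 0.27 and 0.29 ± 0.20 (SE), or 0.086 and 0.088 without control replicate 2.

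Of the GINS genes, Gins2 was at 41.7 and 42.4 RPKM with miR-125b and at 35.3 and 27.7 RPKM in control. It was the helicase-activation gene with the smallest unadjusted p, 0.0781 by limma (adjusted p = 0.558), and its log2 fold change of 0.42 ± 0.20 was 0.25 without control replicate 2. Its row shares 116 exon bases with Gse1 on the other strand. Gins1 was at 12.9 and 16.1 RPKM with miR-125b and at 13.5 and 9.15 RPKM in control, with overlapping groups. Gins3, at 8.44 and 8.30 RPKM with miR-125b and 8.12 and 5.91 RPKM in control, had groups that did not overlap but a small margin over control replicate 1. Gins4 ran between 21.3 and 24.9 RPKM over the 4 libraries. The 4 subunits act as 1 complex, and their levels per exon length differed, with Gins2 above Gins4, Gins4 above Gins1 and Gins1 above Gins3 in every library. Mcm10, with a 7mer-m8 site in its longest annotated 3′ UTR, was at 18.2 and 17.4 RPKM with miR-125b and at 19.7 and 13.5 RPKM in control. Its log2 fold change was 0.12 ± 0.22.

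Among polymerase and primase genes, Prim2, the large primase subunit gene, was the one whose groups did not overlap. It was at 16.8 and 17.8 RPKM with miR-125b and at 14.2 and 10.6 RPKM in control. Its log2 fold change was 0.46 ± 0.20 (SE; limma's unadjusted p = 0.0585, adjusted p = 0.534), and 0.27 without control replicate 2. Prim1, the gene of the catalytic primase subunit, was at 35.6 and 36.0 RPKM with miR-125b and at 43.6 and 30.9 RPKM in control. Ratios of partner genes were computed for 9 pairs, and in 4 of them the groups did not overlap: Prim1 to Prim2, Pold1 to Pold2, Fen1 to Lig1 and Rrm1 to Rrm2. Among all tested genes 42.8% had groups that did not overlap in level, so 4 of 9 is no result about these pairs, and the ratios are descriptions with no test. The ratio of Prim1 to Prim2 was 2.12 and 2.03 with miR-125b and 3.07 and 2.92 in control.

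Pola1, the catalytic subunit gene of polymerase alpha, was at 19.7 and 23.4 RPKM with miR-125b and at 21.3 and 13.8 RPKM in control. Its accessory subunit gene Pola2 ran only between 25.2 and 26.8 RPKM, the smallest ratio of highest to lowest library among the 45. The polymerase delta genes Pold1 and Pold2 were among the few that were not lowest in control replicate 2. Pold1, the catalytic subunit gene, was at 34.7 and 42.1 RPKM with miR-125b and at 34.3 and 36.8 RPKM in control, and Pold2 at 39.1 and 46.7 RPKM with miR-125b and 44.0 and 45.4 RPKM in control. The ratio of Pold1 to Pold2 was 0.888 and 0.903 with miR-125b and 0.781 and 0.810 in control. Pold2 shares 44 exon bases with Aebp1 on the other strand. Pold3, by contrast, was at 30.6 and 29.4 RPKM with miR-125b and at 31.1 and 19.8 RPKM in control. The levels of all 3 overlapped between groups.

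Pole, the large catalytic subunit gene of polymerase epsilon, ran between 14.9 and 17.6 RPKM over the 4 libraries. Its partner Pole2 was at 7.39 and 6.28 RPKM with miR-125b and at 6.83 and 4.09 RPKM in control. The median of the polymerase and primase class was 0.20 after correction for transcript GC content, against 0.10 without it.

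Fen1 (chromosome 19, 10273629 to 10278433 in mm9, 2 exons, no exon shared with another gene of the tables) was the gene with the smallest p. It encodes the flap endonuclease that trims the ends of lagging-strand pieces. It had 72.9 and 51.0 RPKM with miR-125b (2037 and 1326 reads), against 109 and 90.1 RPKM in control (2702 and 2071 reads). It was the only gene of the 45 with both miR-125b libraries below both controls. The log2 fold change was -0.69 ± 0.24 (SE; limma's unadjusted p = 0.0258, adjusted p = 0.488), and it ran from -0.94 to -0.44 when libraries were left out in turn. Its unadjusted p was above 0.05 when miR-125b replicate 2 was left out (-0.44) and when control replicate 1 was (-0.56). No seed match for miR-125b was found in its longest annotated 3′ UTR.

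Lig1, the gene of the ligase that seals what Fen1 has trimmed, was at 42.9 and 54.1 RPKM with miR-125b and at 47.7 and 34.4 RPKM in control. The ratio of Fen1 to Lig1 was 1.70 and 0.943 with miR-125b and 2.28 and 2.62 in control, lower in both miR-125b libraries than in either control. Pcna, the gene of the sliding clamp that holds both enzymes on DNA, was at 72.9 and 102 RPKM with miR-125b and at 104 and 94.6 RPKM in control. Only miR-125b replicate 1 was low, and the groups overlapped. The ratio of Fen1 to Pcna was 0.999 and 0.50 with miR-125b and 1.04 and 0.952 in control, which overlapped.

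The clamp loader genes did not share 1 direction. Rfc4, a small loader subunit gene, was at 24.4 and 30.8 RPKM with miR-125b and at 22.1 and 13.9 RPKM in control. The groups did not overlap, and its log2 fold change of 0.61 ± 0.26 (SE; limma's unadjusted p = 0.0525, adjusted p = 0.534) was the highest of the 45, or 0.30 without control replicate 2. Its row shares 160 exon bases with the translation factor gene Eif4a2 on the other strand. Rfc2 was at 74.2 and 85.9 RPKM with miR-125b and at 65.8 and 88.7 RPKM in control, the reverse order of the controls from most genes here. Its longest annotated 3′ UTR, of 3846 bases, holds a 7mer-m8 site. The counted row has 1518 exon bases, so it cannot hold all of that 3′ UTR, and whether it holds the site was not checked. Rfc1, the large subunit gene, ran between 23.8 and 37.0 RPKM and Rfc3 between 23.5 and 26.1 RPKM. Rfc5, with an 8mer in its longest annotated 3′ UTR, was at 23.3 and 18.9 RPKM with miR-125b and at 23.9 and 21.8 RPKM in control. For Rfc5 too the searched 3′ UTR, of 1707 bases, was long beside the 1730 exon bases of the counted row.

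The genes of RPA, the complex that coats single-stranded DNA, overlapped between groups. Rpa1 was at 56.6 and 50.7 RPKM with miR-125b and 55.5 and 43.8 RPKM in control, and Rpa2 at 37.9 and 42.8 RPKM with miR-125b and 38.4 and 27.5 RPKM in control. Rpa3, the smallest subunit gene and the one with the lowest transcript GC content of the 45, was at 16.4 and 19.0 RPKM with miR-125b and at 14.8 and 24.1 RPKM in control.

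In nucleotide supply, Rrm1 and Rrm2 encode the large and small subunits of ribonucleotide reductase, which turns ribonucleotides into deoxyribonucleotides. Rrm1 was at 81.6 and 85.6 RPKM with miR-125b and at 83.7 and 52.5 RPKM in control, nearly equal in all but control replicate 2. Rrm2 was at 19.3 and 18.1 RPKM with miR-125b and at 26.5 and 14.5 RPKM in control, so that both miR-125b libraries lay between the controls. The ratio of Rrm1 to Rrm2 was 4.23 and 4.73 with miR-125b and 3.16 and 3.63 in control, higher in both miR-125b libraries than in either control.

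Tk1, the thymidine salvage kinase gene, was at 39.9 and 42.5 RPKM with miR-125b and at 29.7 and 35.4 RPKM in control. Both miR-125b libraries were above both controls, and unlike most of the 45 its lowest library was control replicate 1. Its log2 fold change was 0.33 ± 0.19 (SE; limma's unadjusted p = 0.126, adjusted p = 0.609), and between 0.21 and 0.46 when libraries were left out in turn. Its row shares 88 exon bases with Afmid on the other strand. Of the 11 genes whose miR-125b libraries were both above both controls, Orc3, Gins2, Rfc4 and Tk1 have such an overlap. Pold2, whose groups overlapped in level, shares exon bases in the same way. The share of all tested genes that do was not computed, and the part of such reads in the values was not tested.

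Tyms, the gene of thymidylate synthase, was at 15.6 and 13.99 RPKM with miR-125b and at 16.0 and 10.8 RPKM in control. These are values of the longer of its 2 rows, a RefSeq transcript of 3808 bases classed as non-coding. Its log2 fold change was 0.16 with that row and 0.16 with the shorter one. A pseudogene row, Tyms-ps, held between 1.72 and 4.41 RPKM. How reads that match both rows were treated is not stated, so the level of Tyms is uncertain. Dut, whose product keeps uracil out of DNA, was at 30.3 and 33.6 RPKM with miR-125b and at 38.8 and 28.8 RPKM in control, and its groups overlapped.

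**Figure D4:**
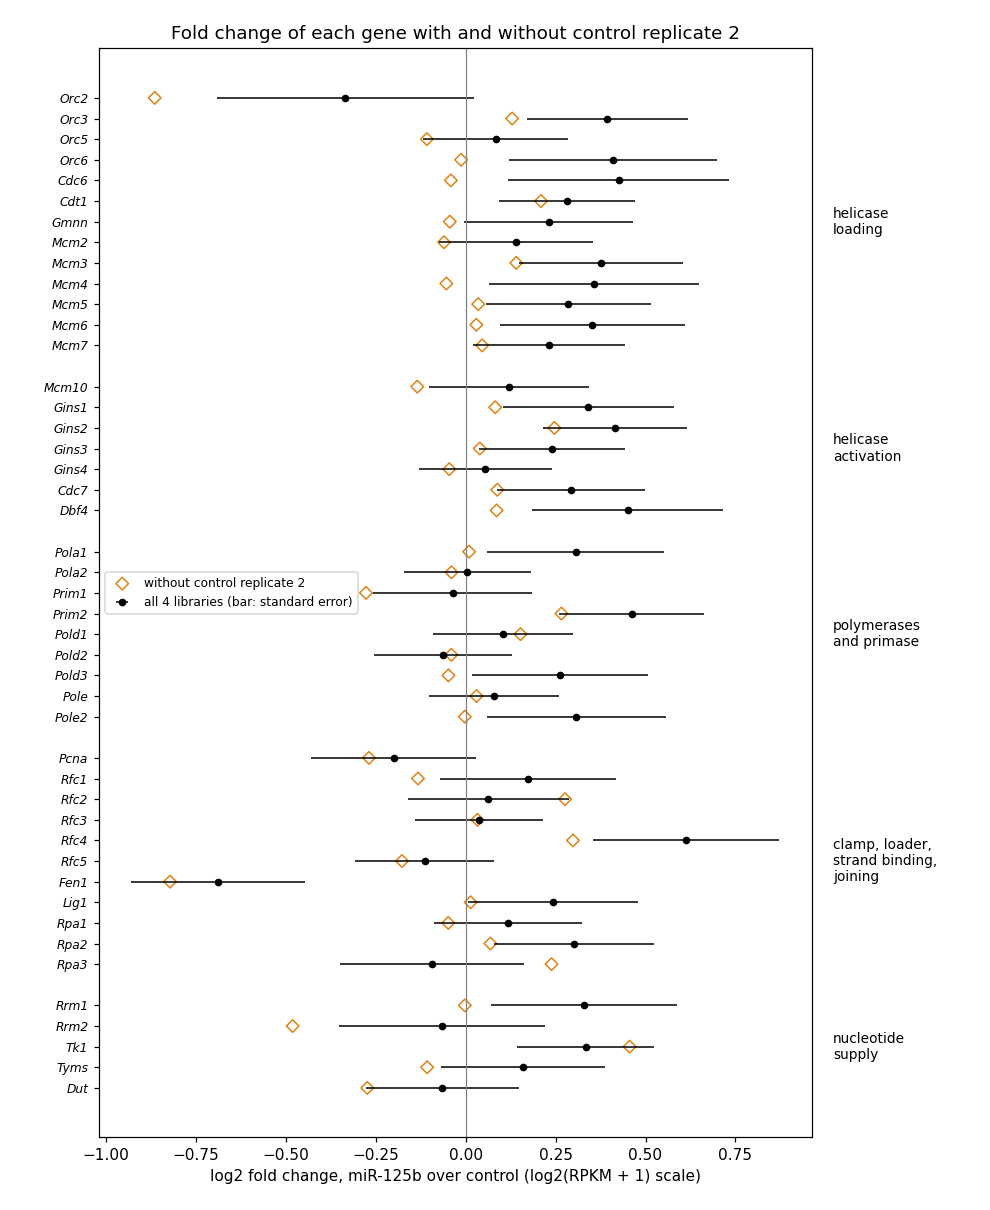
Log2 fold change of each gene, miR-125b over control on the log2(RPKM + 1) scale, with all 4 libraries (black, bar: standard error) and without control replicate 2 (open diamonds), by role. The median over the 45 moves to -0.0026 without that library, against 0.23 with it, while Fen1 is at -0.82, against -0.69, and Tk1 at 0.46, against 0.33.

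Without control replicate 2, 4 of the 45 had an unadjusted p under 0.05, a share near that of all tested genes, so nothing is read from it. They were Orc2 (log2 fold change -0.87), Fen1 (-0.82) and Rrm2 (-0.48) on the lower and Tk1 (0.46) on the higher side by limma, where 5.46% of all tested genes were lower and 6.04% higher at that level. None of the 45 passed the adjusted threshold. That comparison rests on 1 control library, which is assumed to vary like the miR-125b libraries. Orc2 and Rrm2 were at 0.19 and 0.35 without control replicate 1, so their direction turned with the control library used.

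The 5 genes with a strong seed match (8mer or 7mer-m8) in the longest annotated 3′ UTR did not share 1 direction either. Whether the counted rows of these genes hold the match was not checked. Their log2 fold changes were -0.34 for Orc2, -0.11 for Rfc5, 0.43 for Cdc6, 0.12 for Mcm10 and 0.063 for Rfc2. None of the 5 had an unadjusted p under 0.05, and each changed sign when a library was left out, with ranges of -0.87 to 0.19 for Orc2, -0.26 to 0.030 for Rfc5, -0.041 to 0.89 for Cdc6, -0.13 to 0.38 for Mcm10 and -0.15 to 0.28 for Rfc2.

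Transcript GC content moved with the difference between the controls. Spearman's rho of the difference of control replicate 2 from control replicate 1 with GC content was 0.52 across the 45 genes and 0.48 across 10253 tested genes with a GC content, in both cases across genes of the same pair of libraries. In the miR-125b pair it was 0.14 across the 45 and 0.051 across all. The median GC content was 48.5% in the 45 genes and 50.4% in all tested genes. With GC content corrected for, the median difference between the control libraries over the 45 was -0.40, against -0.46 before, and the median fold change was 0.20. The part of GC content in the fold changes was not tested further.

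**Figure D5:**
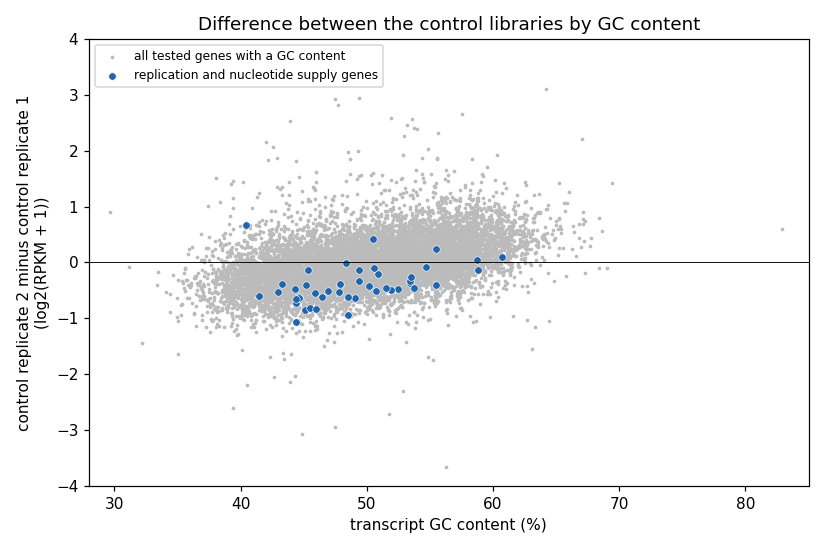
Difference of control replicate 2 from control replicate 1 on the log2(RPKM + 1) scale against transcript GC content, 1 point per gene, for the 45 genes (blue) and all tested genes with a GC content (grey). The grey points rise with GC content, and most blue points lie below 0, at a median of -0.46.

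Further replication and nucleotide-metabolism genes, and mitosis genes, were also mostly lowest in control replicate 2. Of 33 further replication genes, such as Orc1, Cdc45, Timeless and Top2a, 25 were so (75.8%). So were 17 of 26 further nucleotide-metabolism genes (65.4%) and 22 of 26 mitosis genes (84.6%), against 37% of all tested genes. Median log2 fold changes were 0.076 for the further replication genes, 0.14 for the nucleotide genes and 0.31 for the mitosis genes, and -0.065, -0.12 and 0.15 without control replicate 2. Over all 3 lists 0 genes passed the adjusted threshold by limma. At an unadjusted p under 0.05, which 9.38% of all tested genes reached, stood Dscc1 of the replication genes on the higher side, Impdh1 of the nucleotide genes on the lower side, and Cenpf and Kif23 of the mitosis genes on the higher side. Impdh1, an enzyme of guanine nucleotide synthesis, was at 20.5 and 15.9 RPKM with miR-125b and at 37.8 and 35.6 RPKM in control, a log2 fold change of -0.98 ± 0.20 (SE, adjusted p = 0.347). Among 19 tested regulators of the G1 to S step 5 were lowest in control replicate 2. The median log2 fold change of the 19 was -0.13, with 8 above 0 and 11 below, and 0 passed the adjusted threshold. At an unadjusted p under 0.05 by limma, 2 were lower, E2f2 and Cdkn1a, where 5.21% of all tested genes were lower. E2f2 was at 3.09 and 3.44 RPKM with miR-125b and at 7.88 and 8.26 RPKM in control. Its log2 fold change was -1.09 ± 0.18 (SE; limma's adjusted p = 0.271). In these lists the counts at an unadjusted p under 0.05 are few, and nothing is read from them.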

How the data were processed

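Gene expression was measured by RNA-seq in 2 miR-125b and 2 control libraries, grouped by their titles. The authors deposited 1 table per library with 26982 RefSeq transcript rows and an RPKM value for each, with the build mm9 named in the submitters' processing notes. No source used here names the aligner, the counter or how reads with several matches were treated. RPKM times exon length gave whole reads in 100% of rows (tolerance 0.001 reads), so reads were recovered. The values are scaled by the reads assigned to rows only.

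One row per gene was kept (longest exon length), giving 21506 genes. The test was limma 3.58.1 in R 4.3.3 (trended prior, 2-sided) on log2(RPKM + 1) with group as the only term, over the 10310 genes at 1 RPKM or more in at least 2 libraries, with Benjamini-Hochberg adjustment over all of them and a threshold of 0.05. Fold changes are on the log2(RPKM + 1) scale, which understates those of low genes. GC content came from GENCODE M21 transcripts for 98.99% of genes; the correction was a natural spline (4 degrees of freedom) per library. Per the labels' protocols the 2 libraries of a group come from separate infections of 1 line, so p-values measure the spread between these infected cultures. Counting error only is covered by read numbers.

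The genes, lists and role classes were chosen with earlier results of these data known. Values in every library were given for Mcm2 to Mcm7, Pcna, Rrm1, Rrm2, Tk1, Tyms, Dut and the 12 genes with the smallest p, and values of other genes were added after they were seen. Alternatives were other pseudocounts, filters, scalings, transcript rows, limma-voom, GC correction, a replicate block and leaving out each library.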

Additional observations from a re-analysis of the deposited data

How the results depend on the processing

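No alternative called any of the 45 genes at an adjusted p under 0.05. The number with an unadjusted p under 0.05 on the higher side was 0 with all libraries, 1 with quantile normalization (4.33% of all tested genes), 3 with GC correction (5.37% of all) and 1 with the replicate block (4.53% of all), and ran from 0 to 23 when each library was left out, the 23 being without control replicate 1, where 15.5% of all tested genes were higher and 14% lower at that level. A group left with 1 library was assumed to vary like the other. On the lower side it was 1, running from 0 to 3 with libraries left out, the 3 being without control replicate 2 (5.46% of all). Over all tested genes 0 were called, against 12 with the replicate block, 1 without control replicate 2, 108 and 24 when miR-125b replicate 1 or 2 was left out. The replicate numbers are not said to pair cultures, and deviations of same-numbered libraries correlated at 0.021. With libraries left out, the median log2 fold change ran from -0.0026 to 0.42 over the 45 genes, from -0.013 to 0.54 in helicase loading, from 0.082 to 0.50 in helicase activation, from -0.0026 to 0.21 in polymerases and primase, from 0.013 to 0.080 in the clamp and joining class and from -0.11 to 0.35 in nucleotide supply. In every planned setting that kept all 4 libraries the class medians stayed within 1 SD between replicate libraries. That SD takes in the gap between the control libraries, so it is a wide tolerance in classes where that gap is large. The cause of the shifts was not tested.

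The log2 fold change turned sign in 27 of the 45 genes when a library was left out. It ran from -0.061 to 0.34 for Mcm2, -0.054 to 0.77 for Mcm4, -0.0026 to 0.66 for Rrm1, -0.48 to 0.35 for Rrm2, -0.11 to 0.42 for Tyms, -0.27 to 0.14 for Dut, -0.44 to 0.038 for Pcna, -0.013 to 0.83 for Orc6, -0.041 to 0.89 for Cdc6, -0.87 to 0.19 for Orc2, -0.046 to 0.16 for Gins4, -0.0026 to 0.62 for Pole2, -0.19 to 0.062 for Pold2, -0.26 to 0.030 for Rfc5, -0.11 to 0.27 for Orc5, -0.044 to 0.51 for Gmnn, -0.13 to 0.38 for Mcm10, -0.040 to 0.049 for Pola2, -0.28 to 0.21 for Prim1, -0.032 to 0.24 for Pold1, -0.048 to 0.57 for Pold3, -0.022 to 0.18 for Pole, -0.13 to 0.48 for Rfc1, -0.15 to 0.28 for Rfc2, -0.036 to 0.11 for Rfc3, -0.049 to 0.29 for Rpa1 and -0.42 to 0.24 for Rpa3. Pold2 was at 0.058 with GC correction, with and without the replicate block. GC correction and leaving out control replicate 2 together was an alternative chosen after seeing the data. It gave median log2 fold changes of 0.0075 in helicase loading and -0.0076 in the clamp and joining class. Single genes were at -0.088 for Mcm2, -0.035 for Mcm4, -0.097 for Tyms, -0.034 for Cdc6 and -0.051 for Gins4. Using the 41 genes matched by symbol alone, also chosen later, kept their values from the main fit, so no gene's direction could change. The medians kept their direction.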
